A study of Mus musculus with 2 samples.

Results

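The pyruvate dehydrogenase complex and the enzymes that switch it off and on are described here by 10 genes. Its subunits are encoded by Pdha1, Pdhb, Dlat and Dld, its kinases by Pdk1, Pdk2, Pdk3 and Pdk4, and its phosphatases by Pdp1 and Pdp2. They were taken by gene symbol through the Entrez identifiers of the deposited files. All 10 were found among the 16174 genes listed in either library, and each was listed in both libraries. Of the 10, 9 reached 1 FPKM (fragments per kilobase of transcript, scaled to library size) in at least 1 library, and Pdk3 did not. Most of these genes differed little between the libraries, and no member reached a 1.5-fold difference on the scale used for calls. That is common to most genes, since 91.7% of those that reached 1 FPKM in at least 1 library also stayed within 1.5-fold.

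The complex sits in the mitochondrial matrix and turns pyruvate, the end product of glycolysis, into acetyl-CoA, an irreversible step. The acetyl-CoA enters the citric acid cycle or, after export as citrate, feeds fatty acid synthesis, and brown adipose tissue is known for both uses. The kinases phosphorylate the E1 alpha subunit and thereby stop the reaction, and the phosphatases remove the phosphate. RNA levels do not report this phosphorylation, which was not measured here.

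RNA was sequenced from brown adipose tissue, which burns fuel to make heat, of female C57BL/6 mice that were 45 weeks old and had been kept on chow throughout. The D3BKO library (genotype D3Bfl/fl-UCP1-Cre+/-) carried floxed D3B alleles together with Cre under the Ucp1 promoter, which is active in brown adipocytes, so other cells of the depot keep the allele. The D3BWT library (genotype D3Bfl/fl) carried the same floxed alleles, and its label names no Cre. D3B is read here as Dnmt3b, which encodes a de novo DNA methyltransferase. Each genotype had 1 library, the sources used here do not give the number of mice behind each, and D3BKO was run on lane 1 and D3BWT on lane 2, so genotype, Cre and lane cannot be told apart. The D3BKO library held 10068359 expected counts and the D3BWT library 9666528. With 1 library a group there is no test between genotypes and no p-value. The 95% intervals are counting intervals, exact for the ratio of a gene. They treat each read as an independent molecule and cover counting error only.

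Dnmt3b was at 0.18 FPKM in D3BKO and 0.39 FPKM in D3BWT, on 7 and 15 expected counts. The interval of its ratio, 0.159 to 1.20, included 1, so a loss of the targeted transcript was not detectable at this depth, and exons outside the deleted part also count towards it. Brown adipocyte markers were abundant in both libraries, with Ucp1 at 4271 FPKM in D3BKO and 4987 FPKM in D3BWT. The 11 brown adipocyte markers summed to 14606 FPKM in D3BKO and 18737 FPKM in D3BWT, and 10 of 11 were lower in D3BKO. Of the 7 general adipocyte markers 5 were lower, with sums of 23499 FPKM in D3BKO and 26353 FPKM in D3BWT. Their ratios ran from 0.297 for Cfd to 1.07 for Lipe, with Plin1 at 0.972 and Adipoq at 1.02. All 7 macrophage markers were higher, with summed levels of 377 FPKM in D3BKO and 235 FPKM in D3BWT. Of the 7 endothelial markers 6 were lower, with sums of 123 FPKM in D3BKO and 164 FPKM in D3BWT, and of the 8 fibroblast markers 7 were higher, with sums of 368 FPKM in D3BKO and 273 FPKM in D3BWT. The 12 skeletal muscle markers summed to 13.9 FPKM in D3BKO and 12.2 FPKM in D3BWT, most of it from Mb, and Ckm, the muscle creatine kinase, was listed in neither library. Among all genes that reached 1 FPKM in at least 1 library, 45.9% were higher in D3BKO. Among those with a mean of 100 FPKM or more, the share was 30.0%. The part that cell makeup has in the differences below was not tested. In bulk tissue, fewer cells of a type and less RNA per cell cannot be told apart.

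The catalytic subunits were slightly higher in D3BKO, by up to 19%. E1, the pyruvate-oxidizing enzyme, is built from the products of Pdha1 and Pdhb. Pdha1, the alpha subunit that the kinases phosphorylate, was at 838 FPKM in D3BKO and 757 FPKM in D3BWT. Its ratio was 1.11 (1.09 to 1.13). Pdhb, the beta subunit, had 932 FPKM in D3BKO and 784 FPKM in D3BWT. Its ratio of 1.19 (1.16 to 1.22) was the highest of the 4 subunits. Dlat encodes E2, the acetyltransferase that forms the core of the complex and hands the acetyl group to coenzyme A. It stood at 181 FPKM in D3BKO and 158 FPKM in D3BWT, a ratio of 1.14 (1.10 to 1.18). Dld encodes E3, the dihydrolipoamide dehydrogenase that this complex shares with its relatives for 2-oxoglutarate and branched-chain keto acids. Its levels were 546 FPKM in D3BKO and 535 FPKM in D3BWT, and the interval of its ratio of 1.02 (0.995 to 1.05) included 1. Summed over the 4 subunits, the level was 2496 FPKM in D3BKO and 2234 FPKM in D3BWT.

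**Figure D1:**
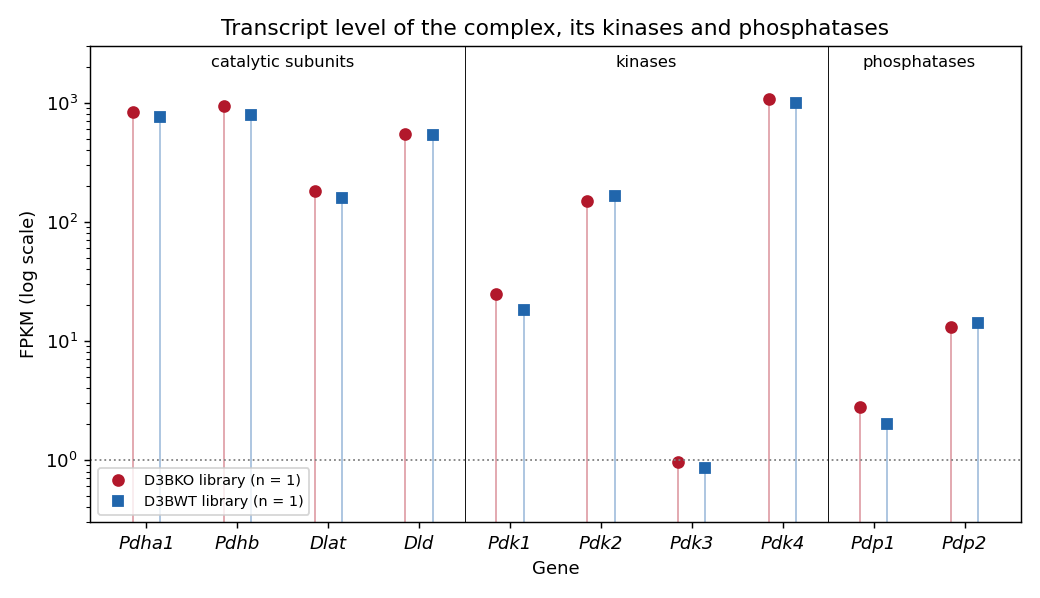
Level of each of the 10 genes in FPKM on a log scale, with D3BKO as circles and D3BWT as squares, 1 library each, and a dotted line at 1 FPKM. The E1 subunits and Pdk4 lie near the top in both libraries, from 757 to 1086 FPKM, while Pdk3 is below 1 FPKM and the phosphatases do not exceed 14.0 FPKM.

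Proportions between genes of the same library do not depend on how the libraries are scaled to each other, and those involving E3 and its binding protein were lower in D3BKO. Pdhb stood to Pdha1 in FPKM as 1.11 to 1 in D3BKO and 1.04 to 1 in D3BWT. That proportion was 1.07 times (1.04 to 1.11) as high in D3BKO. Dlat to Pdha1 was 0.216 in D3BKO and 0.209 in D3BWT, and the interval of this change, 0.992 to 1.07, included 1. Dld to Pdha1 was 0.652 in D3BKO and 0.706 in D3BWT, 0.923 times (0.894 to 0.952) as high in D3BKO. Dld to Pdhb was 0.586 in D3BKO and 0.682 in D3BWT, 0.859 times (0.828 to 0.890) as high. Pdhx, which encodes the protein that ties E3 to the E2 core, was at 74.6 FPKM in D3BKO and 73.2 FPKM in D3BWT, a ratio of 1.02 (0.954 to 1.09). Pdhx to Dlat was 0.413 in D3BKO and 0.463 in D3BWT, 0.893 times (0.829 to 0.961) as high. The E2 gene was far less abundant than the E1 genes in both libraries.

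The kinases were dominated by 1 gene, and their differences went in both directions. Pdk4, the kinase that is induced by fasting, fatty acids and glucocorticoids in many tissues, was at 1086 FPKM in D3BKO and 999.5 FPKM in D3BWT. It ranked 88th of all genes by FPKM in D3BKO and 99th in D3BWT, above every other member. Its ratio was 1.09 (1.07 to 1.10). The D3BWT count of Pdk4, 32950.2, was not whole, so some of its reads were divided with another gene. Pdk2, a widely expressed kinase, was the member with an interval below 1. It was at 149 FPKM in D3BKO and 166 FPKM in D3BWT, a ratio of 0.894 (0.853 to 0.938). Pdk1, a known target of the hypoxia factor HIF1 and the kinase that can phosphorylate all E1 sites, was at 24.8 FPKM in D3BKO and 18.3 FPKM in D3BWT. Its ratio of 1.36 (1.24 to 1.48) was the largest of the kinases, and 8.60% of tested genes had a higher log2 ratio. Pdk3 was at 0.97 FPKM in D3BKO and 0.85 FPKM in D3BWT on 19 and 16 counts, and its interval of 0.556 to 2.37 leaves its direction undetermined at this depth.

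In summed FPKM the kinases came to 1260.0 in D3BKO and 1185 in D3BWT. Pdk4 made up 86.2% of that sum in D3BKO and 84.4% in D3BWT. Pdk2 took 11.8% in D3BKO and 14.0% in D3BWT, and Pdk1 1.97% in D3BKO and 1.54% in D3BWT. Set against each other inside each library, Pdk1 to Pdk2 was 0.167 in D3BKO and 0.110 in D3BWT, 1.52 times (1.37 to 1.67) as high in D3BKO. Pdk4 to Pdk2 was 7.30 in D3BKO and 6.01 in D3BWT, 1.21 times (1.16 to 1.28) as high. Pdk4 to Pdha1, the kinase against its substrate, was 1.30 in D3BKO and 1.32 in D3BWT, and the interval of this change, 0.958 to 1.01, included 1. Pdk2 to Pdha1 was 0.178 in D3BKO and 0.220 in D3BWT, 0.808 times (0.768 to 0.850) as high.

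The phosphatase genes were far lower than the kinase genes. Pdp2, the isoform linked to insulin action, had 13.0 FPKM in D3BKO and 14.0 FPKM in D3BWT, and the interval of its ratio of 0.926 (0.812 to 1.06) included 1. Pdp1, the calcium-sensitive isoform, had 2.81 FPKM in D3BKO and 1.99 FPKM in D3BWT, on 118 and 80 counts. Its ratio of 1.41 (1.05 to 1.90) was the highest of all members and had a wide interval. The share of Pdp1 in the phosphatase FPKM was 17.8% in D3BKO and 12.4% in D3BWT, and Pdp1 to Pdp2 was 1.53 times (1.10 to 2.11) as high in D3BKO. The phosphatase sums were 15.8 FPKM in D3BKO and 16.0 FPKM in D3BWT. Summed kinase level over summed phosphatase level was 79.8 in D3BKO and 74.1 in D3BWT. Pdpr, the regulatory subunit of the phosphatase and chosen after its value was seen, was at 10.5 FPKM in D3BKO and 9.37 FPKM in D3BWT, with a ratio of 1.12 and an interval that included 1 (0.946 to 1.33).

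**Figure D2:**
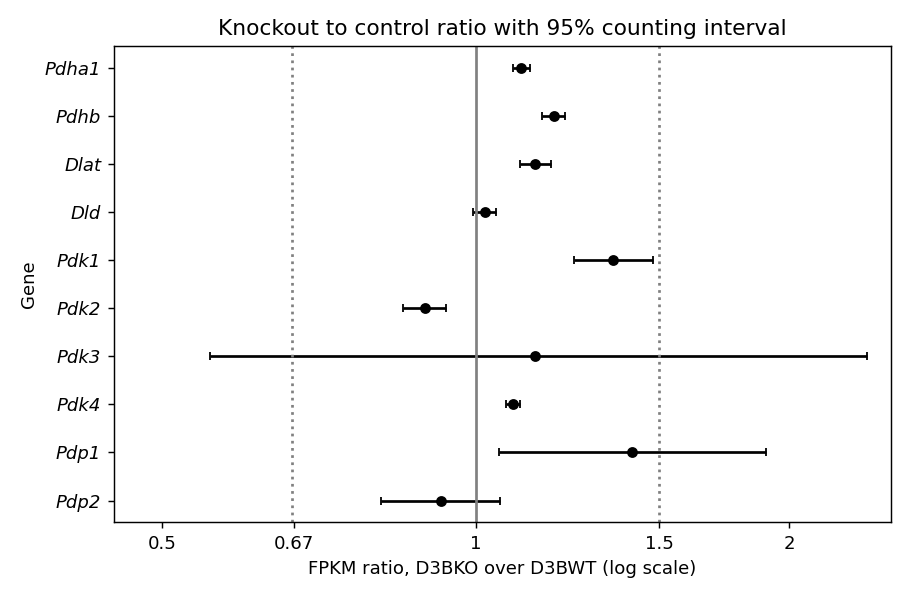
FPKM ratio of D3BKO over D3BWT for each gene on a log scale, with 95% counting intervals as bars and dotted lines at 1.5-fold in either direction. Pdk1 at 1.36 and Pdp1 at 1.41 lie furthest to the right, Pdk2 at 0.894 lies left of 1 with its whole interval, and the interval of Pdk3 spans both dotted lines.

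Calls were made over the 11746 genes that reached 1 FPKM in D3BKO or D3BWT, on log2((FPKM + 1) in D3BKO / (FPKM + 1) in D3BWT), which understates the difference of genes with low values. At 2-fold with an interval outside 1, none of the 9 tested members was called, against 0.902% of tested genes higher and 0.673% lower. At 1.5-fold likewise none was called, against 4.34% higher and 3.42% lower. By the interval alone, 6 of the 9 were higher (Pdha1, Pdhb, Dlat, Pdk1, Pdk4 and Pdp1), against 18.2% of tested genes, and Pdk2 was lower, against 22.4%. The members' median log2 ratios were 0.17 for the 4 subunits and 0.12 for the 3 tested kinases, beside -0.03 over all tested genes. Deep counts make narrow intervals, so genes of like abundance are a closer comparison. Of the 832 tested genes whose mean level reached 100 FPKM, 21.9% had an interval above 1 and 55.8% below 1, and their median log2 ratio was -0.10. Of the 6 members in that range, Pdha1, Pdhb, Dlat and Pdk4 had intervals above 1, Dld included 1 and Pdk2 lay below.

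The promoters of the members are shown for the kinases that carry nearly all kinase reads and for Pdhb, the subunit with the highest ratio. They give the CG sites at which a DNA methyltransferase could act, although the files hold no methylation data. The 250 bases before the most upstream annotated start are printed 5′ to 3′ on the gene's strand, with every CG in capitals. The sequences are from RefSeq on GRCm38.p6, a later build than the mm9 named in the submitters' processing notes, and 9 of the 10 members matched. The windows are chr14:8172993-8173242 on the minus strand for Pdhb, chr2:71872974-71873223 on the plus strand for Pdk1, chr11:95041372-95041621 on the minus strand for Pdk2 and chr6:5496279-5496528 on the minus strand for Pdk4.
Pdhb: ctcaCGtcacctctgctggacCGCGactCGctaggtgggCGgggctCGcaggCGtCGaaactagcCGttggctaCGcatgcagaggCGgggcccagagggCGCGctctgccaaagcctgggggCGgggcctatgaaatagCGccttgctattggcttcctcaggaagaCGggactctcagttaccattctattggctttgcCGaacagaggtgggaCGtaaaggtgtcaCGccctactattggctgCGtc
Pdk1: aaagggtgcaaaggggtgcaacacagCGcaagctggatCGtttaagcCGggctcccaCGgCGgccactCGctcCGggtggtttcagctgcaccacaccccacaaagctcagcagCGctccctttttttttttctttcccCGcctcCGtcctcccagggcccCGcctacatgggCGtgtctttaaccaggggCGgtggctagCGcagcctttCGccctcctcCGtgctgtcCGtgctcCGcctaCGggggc
Pdk2: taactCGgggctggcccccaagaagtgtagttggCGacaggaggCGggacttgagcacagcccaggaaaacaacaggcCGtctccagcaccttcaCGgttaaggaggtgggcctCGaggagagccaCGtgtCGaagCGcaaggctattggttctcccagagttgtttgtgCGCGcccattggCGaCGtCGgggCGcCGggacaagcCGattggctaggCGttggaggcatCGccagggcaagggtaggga
Pdk4: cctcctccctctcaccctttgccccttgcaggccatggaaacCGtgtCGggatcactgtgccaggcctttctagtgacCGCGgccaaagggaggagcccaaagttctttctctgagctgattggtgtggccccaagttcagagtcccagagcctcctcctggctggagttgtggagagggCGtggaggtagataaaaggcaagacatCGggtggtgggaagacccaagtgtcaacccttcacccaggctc

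Pdk4, the most abundant member, had the fewest CG sites of the 9 matched members, with 6 in the window, and 83.6% of tested genes had more. Pdk1 and Pdk2, whose ratios lie on opposite sides of 1, had 19 each, and Pdhb had 20. The nearly silent Pdk3 had 29, and 11.1% of tested genes had more. The median over 9340 tested genes with a matched promoter was 16, and the 5th and 95th percentiles were 2 and 35. The letters CCAAT, on either strand, occurred 3 times each in the Pdhb and Pdk2 windows and in 6 of the 9 windows in all, among them that of Pdk4, and 36.5% of tested genes had at least 1 match. The letters CACGTG, which contain a CG, occurred in the Pdk2 and Pdp2 windows and in 8.65% of tested genes. GGGCGG on either strand, which also contains a CG, occurred in 5 of the 9 windows and in 60.3% of tested genes. TATAAA and AGAACA were in none of the 9 windows, and in 6.34% and 10.5% of those of tested genes. These matches are counts of letters in the window and are not binding sites.

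Most genes of the related complexes for other 2-oxo acids, which share its E3, were lower in D3BKO. Of the 8 tested genes of the 2-oxoglutarate, 2-oxoadipate and branched-chain complexes, 6 had an interval below 1. The share was 22.4% over all tested genes and 55.8% over those with a mean of 100 FPKM or more. Only Ogdh, Dlst, Bckdha and Bckdhb reached that mean, and of these all but Ogdh had an interval below 1. Ogdh, the E1 of the 2-oxoglutarate complex, lay slightly above 1 with a ratio of 1.02, and Dhtkd1, the E1 of the 2-oxoadipate complex, included 1 with 0.945. The median log2 ratio was -0.18, and -0.10 after both libraries were set to equal FPKM totals. Bckdha, the E1 alpha subunit of the branched-chain complex, was at 526 FPKM in D3BKO and 649 FPKM in D3BWT, a ratio of 0.810 (0.788 to 0.833). Dbt, the E2 of that complex, was at 51.8 FPKM in D3BKO and 66.3 FPKM in D3BWT, a ratio of 0.781 (0.732 to 0.833). Its kinase gene Bckdk had a ratio of 0.842 (0.789 to 0.898) and its phosphatase gene Ppm1k 0.575 (0.489 to 0.675), the list's gene past 1.5-fold. Bckdk, Ppm1k and Ogdh had counts that were not whole. Inside each library, Pdha1 to Bckdha was 1.59 in D3BKO and 1.17 in D3BWT, 1.37 times (1.32 to 1.41) as high in D3BKO. Dlat to Dbt was 3.49 in D3BKO and 2.39 in D3BWT, 1.46 times (1.36 to 1.57) as high. Dlat to Dlst, the E2 of the 2-oxoglutarate complex, was 0.343 in D3BKO and 0.276 in D3BWT, 1.24 times (1.19 to 1.29) as high, and Pdha1 to Ogdh was 1.09 times (1.06 to 1.11) as high. Ogdh, Dhtkd1, Dlst and Bckdhb were chosen after their values were seen. These are comparisons of reads in 2 libraries, and whether the complexes differ between genotypes was not tested.

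The lipoyl arm of E2 and the thiamine cofactor of E1 need their own supply genes. Of 13 tested genes of lipoylation and thiamine supply, 6 had an interval below 1 and none above, beside the 22.4% and 18.2% of all tested genes. None reached 1.5-fold, against 4.34% of tested genes higher and 3.42% lower. The median log2 ratio was -0.16, but -0.07 with equal FPKM totals and -0.01 once a smooth trend with transcript length and expression was taken out. Mcat, which loads malonyl groups for mitochondrial fatty acid synthesis, the source of lipoate, had a ratio of 0.748 (0.668 to 0.837). The iron-sulfur genes Nfu1 and Iba57, needed by lipoate synthase, had ratios of 0.815 (0.737 to 0.901) and 0.804 (0.699 to 0.924).

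Genes that bring pyruvate to the complex or send it elsewhere went both ways. Of 13 tested genes, 6 had an interval above 1 and 4 below, against 18.2% and 22.4% of all tested genes. None was past 1.5-fold on the scale used for calls, against 4.34% of tested genes higher and 3.42% lower. The list's median log2 ratio was 0.01. Gpt2, the mitochondrial alanine transaminase, had a ratio of 1.34 (1.16 to 1.56). The malic enzymes differed from each other, with Me2 at a ratio of 1.38 (1.06 to 1.81) and Me3 at 0.746 (0.671 to 0.828). Slc16a3, a lactate exporter, was at 1.27 FPKM in D3BKO and 0.62 FPKM in D3BWT, a ratio of 2.05 (1.06 to 4.17) on 31 and 14 counts. Chosen after their values were seen, the carrier subunits Mpc1 and Mpc2, which together form the mitochondrial pyruvate carrier, had ratios of 1.11 (1.08 to 1.15) and 0.905 (0.871 to 0.941). Ldha, the lactate dehydrogenase chain favoured in glycolytic tissue, stood to Ldhb as 1.92 to 1 in D3BKO and 1.39 to 1 in D3BWT, also chosen after seeing the values.

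Genes that use or export acetyl-CoA reached ratios of up to 1.86. Of 10 tested genes, 5 had an interval above 1 and 4 below, against 18.2% and 22.4% of all tested genes. All but Acss1 had a mean of at least 100 FPKM, and over genes of that level the shares were 21.9% above and 55.8% below. On the call scale 3 passed 1.5-fold upwards and none downwards, against 4.34% and 3.42% of all tested genes. The list was chosen with earlier results of these data known, so these counts are no independent evidence of a direction. The list's median log2 ratio was 0.23. The 4 with an interval below 1, chosen after their values were seen, were Cs at 0.936, Acss1 at 0.745, Crat at 0.898 and Slc25a20 at 0.875. Slc25a1, the mitochondrial citrate carrier, was at 300.1 FPKM in D3BKO and 212 FPKM in D3BWT, a ratio of 1.42 (1.35 to 1.48). Acly, which splits citrate back to acetyl-CoA, was at 413 FPKM in D3BKO and 222 FPKM in D3BWT. Acaca, the first enzyme of fatty acid synthesis, and Fasn, the synthase itself, had ratios of 1.83 and 1.82.

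**Figure D3:**
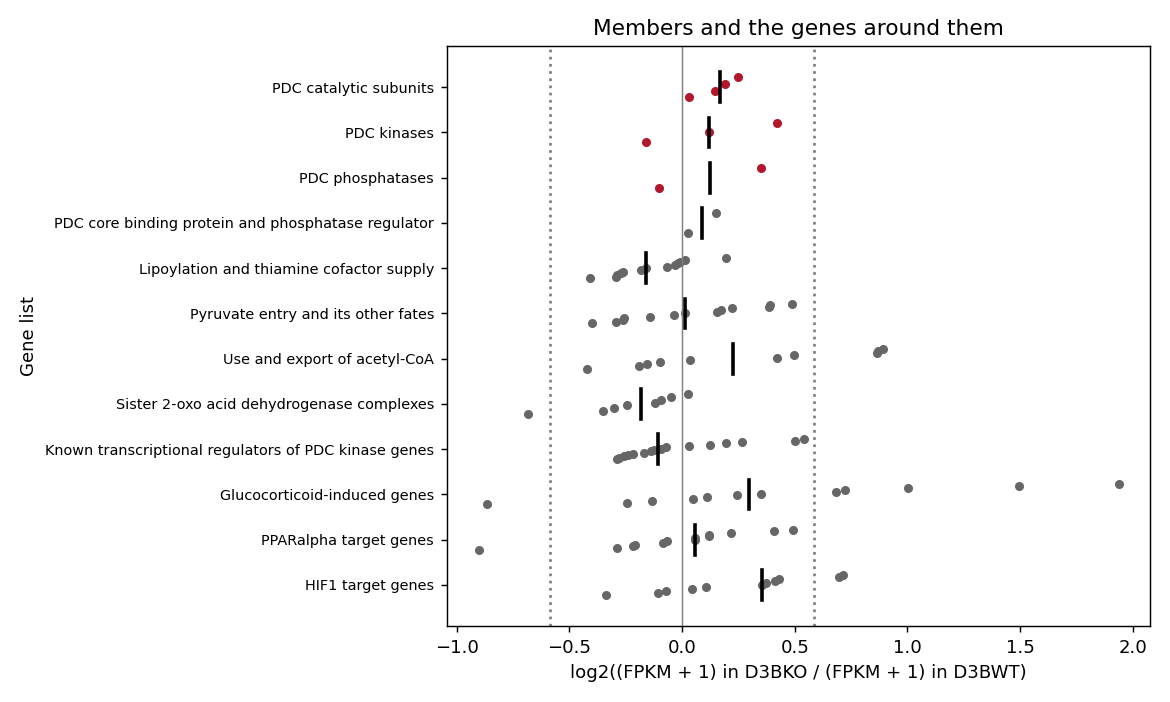
Each point is a tested gene at its log2((FPKM + 1) in D3BKO / (FPKM + 1) in D3BWT), grouped by gene list, with a black bar at the list median and dotted lines at 1.5-fold. The members lie between -0.16 and 0.42, inside the dotted lines, while genes of the acetyl-CoA, glucocorticoid and HIF1 lists pass the upper line and genes of the sister complex, glucocorticoid and PPARalpha lists pass the lower.

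Regulators and programmes tied to the kinase genes were compared because Pdk4 and Pdk1 are known targets of several of them. Of 16 transcriptional regulators, 4 had an interval above 1 and 9 below, against 18.2% and 22.4% of all tested genes. None was past 1.5-fold on the scale used for calls, against 4.34% of tested genes higher and 3.42% lower. The regulators' median log2 ratio was -0.11. Their mean was -0.01, and the median with equal FPKM totals was -0.02. Foxo1, a factor that insulin keeps out of the nucleus and that induces Pdk4 in muscle and liver, was at 22.5 FPKM in D3BKO and 15.6 FPKM in D3BWT, a ratio of 1.44 (1.32 to 1.58). Its relative Foxo3 had a ratio of 1.67 (1.20 to 2.35). Ppargc1a, a coactivator of mitochondrial genes, had a ratio of 0.812 (0.735 to 0.896) and Cebpb, a factor of adipocyte differentiation, 0.817 (0.766 to 0.871).

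Of 12 glucocorticoid-induced genes, 7 had an interval above 1 and 3 below, against 18.2% and 22.4% of all tested genes. On the call scale 5 were at least 1.5-fold higher and 1 lower, against 4.34% and 3.42% of all tested genes. The list's median log2 ratio was 0.30. Genes of this list had been seen to differ in these libraries, so the list is no independent evidence of a direction. Fkbp5, a co-chaperone of the glucocorticoid receptor, was at 14.8 FPKM in D3BKO and 3.12 FPKM in D3BWT. The transcription factor Zbtb16 was at 17.5 FPKM in D3BKO and 5.54 FPKM in D3BWT, and Tsc22d3, the glucocorticoid-induced leucine zipper, at 67.2 FPKM in D3BKO and 33.1 FPKM in D3BWT. Dusp1, a phosphatase of MAP kinases, had a ratio of 0.544 (0.498 to 0.593). Pdk4, another gene that glucocorticoids induce, had a ratio of 1.09, inside the list's range from 0.544 for Dusp1 to 4.73 for Fkbp5. Whether glucocorticoids have a part in the Pdk4 difference was not tested.

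The 13 tested PPARalpha targets had 4 intervals above 1 and 3 below, against 18.2% and 22.4% of all tested genes. Past 1.5-fold lower was 1 target, against 3.42% of all tested genes. The median log2 ratio of the targets was 0.06 and their mean -0.02, opposite in sign. Cpt1a, the liver-type gate of fatty acids into mitochondria, had a ratio of 1.47 (1.26 to 1.71), while its muscle-type relative Cpt1b had 0.819 (0.799 to 0.840) and Plin2, a lipid droplet coat, 1.16 (1.14 to 1.19). Acot1, an acyl-CoA thioesterase, had 0.481 (0.348 to 0.657), but its reads and those of Cpt1b were in part shared with other genes. Of 11 tested HIF1 targets, 6 had an interval above 1 and 2 below, against 18.2% and 22.4% of all tested genes. At least 1.5-fold higher were 2 targets, against 4.34% of all tested genes, and none was lower by that much, against 3.42%. Both target lists were chosen with earlier results of these data known, so their counts are no independent evidence of a direction. The median log2 ratio of the targets was 0.36 and their mean 0.24. P4ha1, a collagen prolyl hydroxylase subunit, had a ratio of 1.73 (1.46 to 2.04), the vasoactive peptide gene Adm 1.87 (1.23 to 2.87), the glucose transporter Slc2a1 1.45 (1.06 to 1.98) and the glycolytic Aldoa 1.29 (1.28 to 1.31). Vegfa and Bnip3, chosen after their values were seen, were lower with 0.791 (0.754 to 0.829) and 0.928 (0.889 to 0.969). Pdk1, a HIF1 target too, had a ratio of 1.36. Whether HIF1 has a part in the Pdk1 difference was not tested.

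The direction of each of the 9 tested members was the same under all processing settings tried. Changes of pseudocount or filter could not have altered it. Pdk1 ranged from 0.36 to 0.50 in log2 ratio, Pdhb from 0.25 to 0.34 and Pdk4 from 0.12 to 0.21. Dld, whose interval included 1 as deposited, lay above 1 after 5 of the rescalings, and Pdk2 ranged from -0.16 to -0.07.

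**Figure D4:**
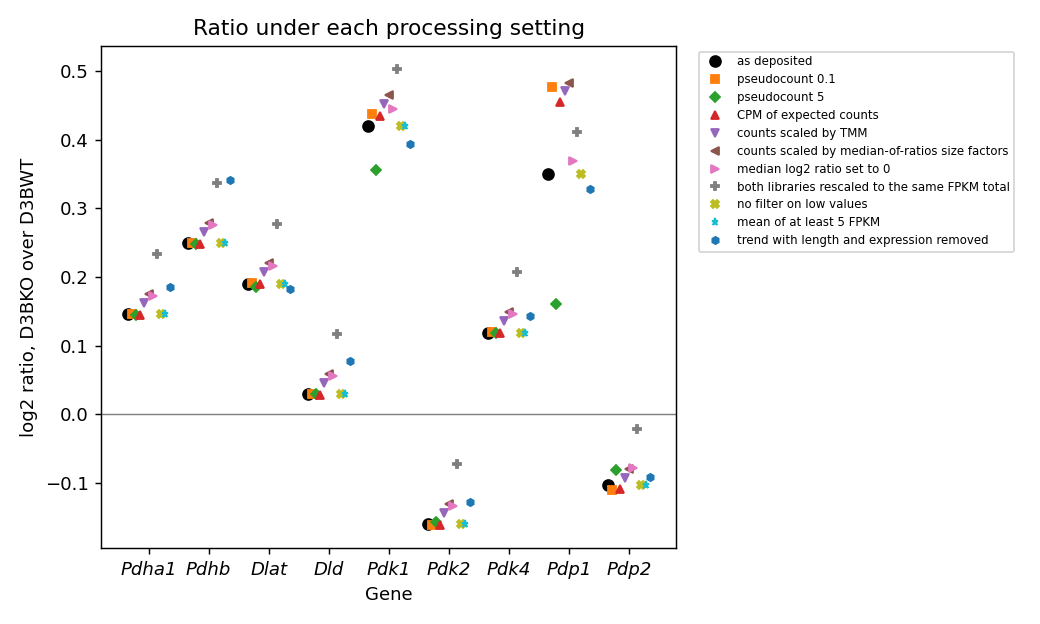
Log2 ratio of D3BKO over D3BWT for each gene (vertical axis) under each processing setting (symbols), with the values as deposited as black circles. No tested gene crosses 0, Pdk2 stays between -0.16 and -0.07, and Pdp1 spreads most, from 0.16 to 0.48.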

How the data were processed

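Polyadenylated RNA of brown adipose tissue was sequenced in 1 library per genotype, per the labels' protocols, which do not mention strand. The authors deposited, per gene, an expected count (an estimate in which reads matching several genes are divided), an FPKM value and a transcript length (other), per the file headers. RSEM and the build mm9 appear in the submitters' processing notes, and the sources used here do not give an aligner. A gene not listed was set to 0. Counts further than 0.05 from whole are called shared.

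Symbols came from a RefSeq table of GRCm38.p6 by Entrez identifier (16134 of 16174 matched). Ratios are of FPKM, D3BKO over D3BWT. Intervals of the ratio of a gene are Clopper-Pearson, conditional on the summed rounded counts (SciPy 1.17.1). For proportions between genes they are log-normal where every count is over 2000, and otherwise exact conditional intervals of the odds ratio of the rounded counts. The scripts were tested on simulated data. Members and gene lists were chosen with earlier results of these data known, so their counts beside all tested genes are no independent evidence. In each list, up to 4 genes with the largest absolute log2 ratio and an interval outside 1 are named, with Pdhx always named, and others are said to be chosen after seeing values. In 1 list, 1 gene named by this rule is not reported here. A count of 3, the limit a count of 0 allows, is worth 0.298 CPM in D3BKO and 0.310 CPM in D3BWT.

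Alternatives were pseudocounts of 0.1 and 5, CPM, TMM (edgeR 4.0.16), median-of-ratios size factors, the median set to 0, equal FPKM totals, no filter, a mean of at least 5 FPKM, and removal of a lowess trend with transcript length and expression.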

Additional observations from a re-analysis of the deposited data

How the results depend on the processing

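No paired analysis was possible because each genotype has 1 library, and leaving out a library leaves no comparison. No member was past 1.5-fold under any setting tried, and 91.7% of all tested genes were within 1.5-fold as deposited. The number of members with an interval above 1 was 6 as deposited and between 5 and 7 otherwise, the lowest where a mean of 5 FPKM left Pdp1 out, and the number below 1 was 1 throughout. Of 89 recomputed member values, 76 stayed within the counting interval and 13 moved outside it, none with a change of sign. The settings with no filter and with a mean of at least 5 FPKM change only which genes are tested. Their values were therefore fixed in advance to stay. A pseudocount cannot change a sign and leaves the intervals as they are. Rescaling to equal FPKM totals raised the median of all tested genes by less than 0.1, to 0.05. Calls of 2-fold over all genes numbered 106 higher and 79 lower as deposited, 280 and 197 with a pseudocount of 0.1, 15 and 14 with a pseudocount of 5, and 132 and 64 with the trend removed, a share of higher calls of 67.3% against 57.3%. With the trend removed, the median of the lipoylation and thiamine genes was -0.01, against -0.16 as deposited. Depth limits Pdk3 and Pdp1 most.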
